A study of Homo sapiens with 24 samples.

Results

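The responses of 2 Hodgkin lymphoma cell lines to the same compound were set against each other. The value studied was the change with AEZS-136 in L-540 minus the change with AEZS-136 in SUP-HD1, so that a positive value marks a gene that moved further up, or less far down, in L-540. It rests on 12 of the 24 arrays of the series, chosen by line and treatment: 3 of L-540 with control, 3 of L-540 with 10 µM AEZS-136, 3 of SUP-HD1 with control and 3 of SUP-HD1 with 10 µM AEZS-136, each exposed for 2 h. AEZS-136 is an inhibitor of both PI3K and ERK according to the study, which gave DMSO vehicle to the controls and counted L-540 and SUP-HD1 among the lines that the compound kills. Each line is a single established line, so a difference between them belongs to these lines and not to classes of tumour. Nothing in the labels ties the 3 arrays of a group to independent cultures, so each p-value here is set against array-to-array spread that may be purely technical.

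Hodgkin lymphoma cells mostly derive from B cells that have lost most of their B cell programme, and the origin of L-540 and SUP-HD1 was not tested. They commonly carry active NF-kB, JAK STAT, PI3K and ERK signalling. JAK STAT signalling is damped by its own target genes, among them SOCS3, SOCS1 and CISH, whose products bind cytokine receptors and kinases. Cells under amino acid shortage or other stress phosphorylate the translation factor eIF2, which raises translation of the transcription factor ATF4 and then transcription of DDIT3, ATF3, CTH and PPP1R15A. Kinases of the PI3K and ERK pathways hold FOXO factors out of the nucleus and induce short-lived immediate early transcripts, so these groups were followed beside stress genes, histone genes and small nucleolar RNA host genes.

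The median signal per array ran from 96.4 to 125.4, with 16876 to 19264 probes above detection, and the number of arrays, 3 per group, limits the precision. Of 19 markers of Hodgkin cells, 14 and 13 were detected on all 3 arrays in control and treated L-540, and 16 in both SUP-HD1 groups. TNFRSF8, which encodes the Hodgkin marker CD30, was detected on all 6 L-540 arrays and on none of the 6 SUP-HD1 arrays, where its control mean of 4.37 lay at background. CD40, IL13 and PDCD1LG2 were detected on all SUP-HD1 arrays and not in this way in L-540. Of 22 T cell markers 7 were detected in both L-540 groups and 5 in both SUP-HD1 groups, and of 18 B cell markers 3 and 2 against 7 and 7. Usable probes existed for 20 of these T cell and 17 of these B cell markers. The log2 of the summed T cell marker signal was 12.22 to 12.30 in control and 11.90 to 11.99 in treated L-540, and 11.12 to 11.22 and 11.06 to 11.12 in SUP-HD1. The sums over Hodgkin markers (13.81 to 13.87, then 13.60 to 13.67) and B cell markers (10.46 to 10.57, then 10.20 to 10.31) were also lower in every treated than in every control array of L-540. Sums moved in SUP-HD1 too. There the myeloid sum was lower in every treated array (9.62 to 9.67, then 9.37 to 9.49) and the B cell sum higher (10.55 to 10.60, then 10.62 to 10.67). Their part in the differences of responses was not tested. Of 14 myeloid markers, 13 of them with a usable probe, 3 and 2 were detected in L-540 and SUP-HD1, and of 15 stromal and epithelial markers 2 and 3. Lower signal from fewer cells of a kind and from less RNA per cell cannot be told apart in such samples.

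AEZS-136 changed transcripts of both lines within 2 h, and for a small share of probes the change itself differed between L-540 and SUP-HD1. Calls required limma's adjusted p to lie under 0.05 and the log2 value to exceed 0.4 in size. Of 20616 probes tested, 568 (2.76%) were called for the difference of responses, 402 above 0 (1.95%, 286 genes) and 166 below 0 (0.805%, 135 genes). L-540 by itself had 1986 called probes (9.63%), 1202 up (5.83%) and 784 down (3.8%), and SUP-HD1 had 1434 (6.96%), 625 up (3.03%) and 809 down (3.92%). The lines shared 542 probes called in the same direction (2.63%), 300 up (1.46%) and 242 down (1.17%), which were 27.3% of the L-540 calls and 37.8% of the SUP-HD1 calls, and 62 of these 542 were also called for a difference in size. Over all 20616 probes the responses correlated at a Pearson coefficient of 0.37, and over the 14274 probes detected in all 4 groups at 0.46, which describes probes on shared arrays and carries no test. The count of 568 fell with any 1 array left out, to between 294 and 560. It was 294 to 375 without 1 of L-540 AEZS-136 replicates 2 and 3, SUP-HD1 AEZS-136 replicates 1 to 3 and SUP-HD1 control replicate 1. Scaling the arrays by their medians brought it to 63. Calls lost in this way include those of PIM1, KLF6, FBXO32, GPR183, MYC, GADD45G, NFE2L2, SMAD5 and the brighter CDKN1A probe. Their adjusted p in limma was then 0.121 to 0.526. An export order of the arrays was inferred from rows that were out of register and cut in the middle into 2 sets. No label names these sets. Within either set, where each line has a single array of 1 group, no difference was called.

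The 568 differences fell into several kinds. For 258 probes the response was called in L-540 but not in SUP-HD1, 165 of them rises and 93 falls. For 178 it was called in SUP-HD1 but not in L-540, and here falls prevailed, with 134 against 44 rises. Calls in both lines with the same sign accounted for 50 probes that moved further in L-540 and 12 that moved further in SUP-HD1. Opposite calls accounted for 18 probes, and in 52 neither line was called by itself. At least 2 arrays of every group detected 378 of the 568. For the rest the difference sets a response against a level at background in some group.

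**Figure D1:**
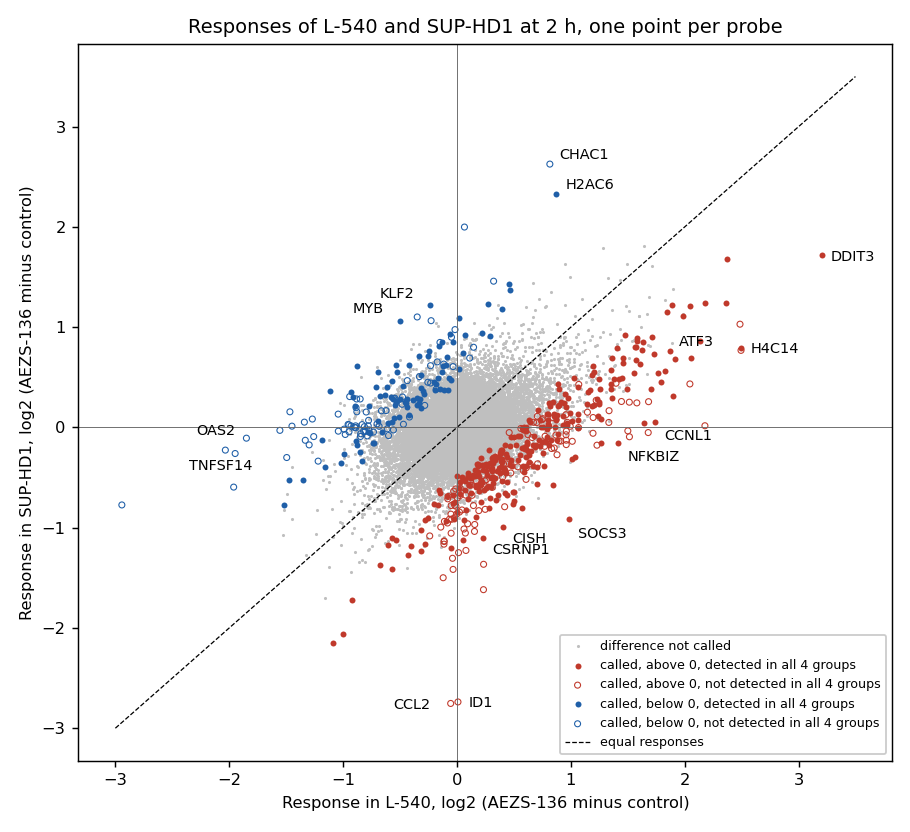
Response of each of 20616 probes in L-540 (horizontal, log2, AEZS-136 minus control) against its response in SUP-HD1 (vertical, log2). Red points are the 402 probes called above 0 and blue points the 166 called below 0, filled where at least 2 of 3 arrays detected the probe in each of the 4 groups. SOCS3 lies at the lower right and MYB at the upper left, while CCL2 and ID1 lie on the line of no response in L-540.

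A few genes moved in opposite directions. SOCS3, a feedback inhibitor of JAK kinases, rose in L-540 and fell in SUP-HD1. MYB, a transcription factor of immature blood cells, did the reverse, as did the interferon-induced membrane protein gene IFITM3 and the small nucleolar RNA SNORA16A. SERTAD1 and SERTAD3, which encode cofactors of E2F transcription, rose in L-540 and fell in SUP-HD1, together with ALG10B, a glucosyltransferase of N-glycan assembly, BORA, an activator of mitotic kinases, and NAA16, a subunit of an N-terminal acetyltransferase. Opposite calls in both lines were met by 18 probes (0.0873% of those tested) of 12 genes and some probes without a symbol, and these 9 genes are those whose leading probe met them with at least 2 arrays detected in every group. Of the other 3 genes, SGK1 and ZNF654 met them by a probe that was not their leading one, and L-540 did not detect TCEAL8.

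SOCS3 read 7.60, 7.68 and 7.50 on the L-540 control arrays and 8.58, 8.62 and 8.54 with AEZS-136. In SUP-HD1 it read 8.01, 7.98 and 8.30 without and 7.06, 7.19 and 7.29 with the compound. The treated arrays lay above all controls in L-540 and below all controls in SUP-HD1, and the lines exchanged their order. The response was 0.98 ± 0.10 (SE) in L-540 and -0.92 ± 0.10 in SUP-HD1, a difference of 1.90 ± 0.15 (adjusted p = 0.000219). A second, dimmer SOCS3 probe gave 0.68 and -0.44, with a difference of 1.12 ± 0.55 that was not called (adjusted p = 0.335).

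MYB read 11.14, 11.07 and 10.91 in control and 10.55, 10.54 and 10.52 in treated L-540. In SUP-HD1 it read 9.34, 9.38 and 9.30 and then 10.38, 10.39 and 10.45. The lines stood 1.70 apart in control arrays and at means of 10.54 and 10.41 in treated ones, with no overlap between control and treated arrays in either line. The difference of responses was -1.57 ± 0.11 (adjusted p = 0.000168), made of -0.50 ± 0.08 and 1.06 ± 0.08.

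SERTAD1 rose from 8.54, 8.46 and 8.37 to 9.05, 8.85 and 8.94 in L-540 and fell from 8.92, 8.82 and 8.90 to 8.19, 8.15 and 8.02 in SUP-HD1. SERTAD3 rose from 7.03, 7.23 and 6.68 to 7.64, 7.78 and 7.23 in L-540 and fell from 8.57, 8.41 and 8.61 to 7.59, 7.86 and 7.74 in SUP-HD1. The groups of SERTAD1 stayed apart in both lines, whereas the lowest treated and the highest control value of SERTAD3 met in L-540 at 7.23. Their differences were 1.25 ± 0.13 (adjusted p = 0.000727) and 1.37 ± 0.23 (adjusted p = 0.012). For the other 5 genes the differences were 1.13 in ALG10B, 1.03 in NAA16, 0.99 in BORA, -1.03 in IFITM3 and -1.02 in SNORA16A, and the other probes of ALG10B (0.32 and 0.22) and NAA16 (0.41) showed smaller values. The calls for the difference of all 9 genes held with any 1 array left out, and 4 of the 9 held when arrays were scaled by their medians. The opposite call in both lines was less stable. It held for 3 to 7 of the 9 genes with 1 array left out, the 3 being SOCS3, MYB and SERTAD1 without SUP-HD1 control replicate 1. It held for 2, SOCS3 and MYB, on the authors' normalized values and for SOCS3 alone under median scaling.

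**Figure D2:**
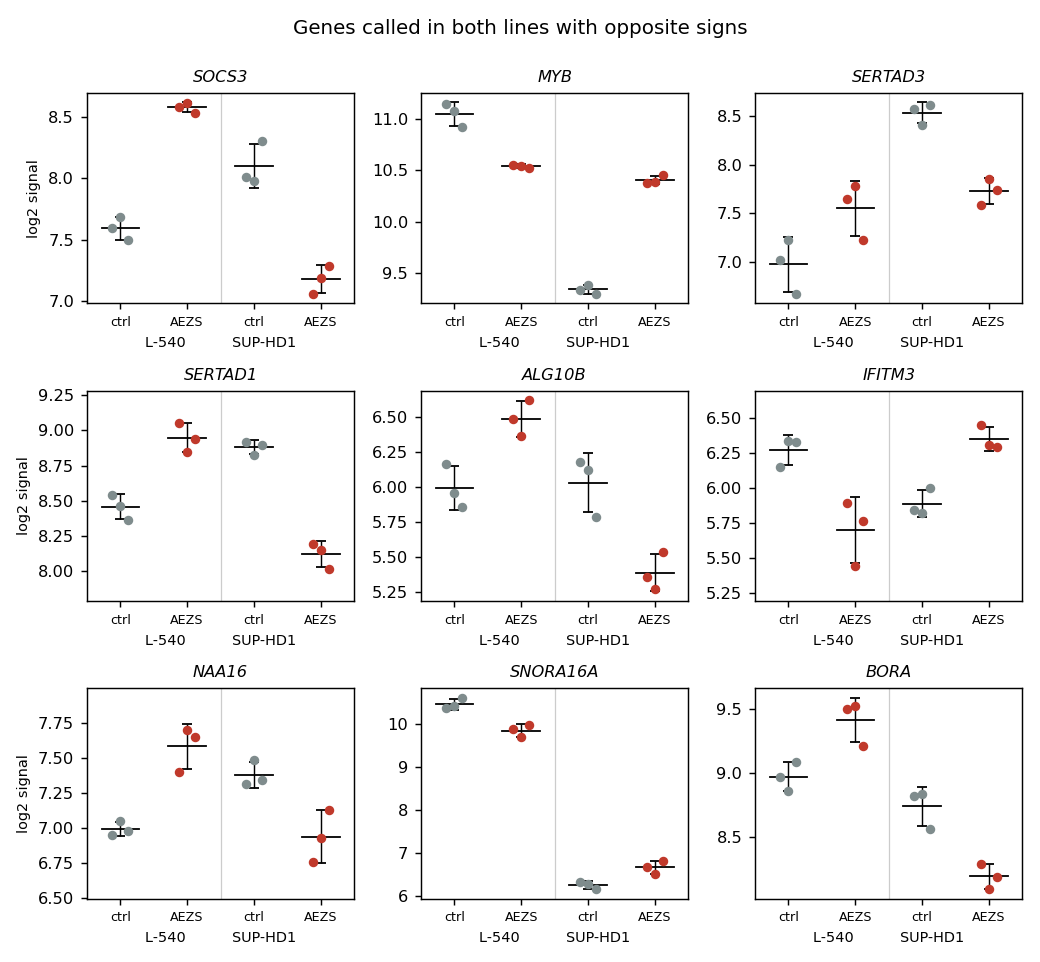
Normalized log2 signal (vertical) of the 9 genes called in both lines with opposite signs, in control (grey) and AEZS-136 (red) arrays of L-540 (left) and SUP-HD1 (right). Points are single arrays, horizontal bars are means and error bars the SD of 3 arrays. In each panel the treated mean lies above control in one line and below it in the other.

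SOCS3 was not the single JAK STAT gene to respond differently. Of 27 measured members of this group, 2 were called above 0, SOCS3 and CISH, and 1 below 0, PIM1, where 1.95% and 0.805% of all probes were called. The median difference was -0.07 beside -0.01 over all probes. CISH, which blocks STAT5 docking at cytokine receptors, read 9.72, 9.79 and 9.57 in control and 10.04, 10.05 and 10.21 in treated L-540. In SUP-HD1 it fell from 7.52, 7.37 and 7.91 to 6.68, 6.48 and 6.66. The change of 0.41 ± 0.13 in L-540 was not called (adjusted p = 0.0763), the fall of 0.99 ± 0.13 in SUP-HD1 was, and the difference was 1.40 ± 0.19 (adjusted p = 0.00355).

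PIM1, a serine kinase induced by STATs, went the other way, by a call that was lost when arrays were scaled by their medians (adjusted p = 0.127 in limma). It read 11.30, 11.36 and 11.41 and then 11.24, 11.20 and 11.14 in L-540, and rose from 10.63, 10.49 and 10.63 to 11.36, 11.43 and 11.38 in SUP-HD1, a difference of -0.97 ± 0.11 (adjusted p = 0.00134). SOCS1 fell in both lines, by 0.86 in L-540 and 1.34 in SUP-HD1, and its difference of 0.48 was not called (adjusted p = 0.0776). SOCS2 gave 0.38 and -0.45 with a difference of 0.83 that also missed the threshold (adjusted p = 0.0586). The kinases JAK1 and JAK2 and the transcription factor STAT6 gave differences of -0.23, -0.21 and -0.06, and STAT4, not detected in SUP-HD1 controls, gave -0.60, none of them called.

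The 250 bases before the start of CISH, SOCS3, CCNL1 and MYB are shown because these genes had some of the largest differences and because matches to 3 of the 5 motifs searched fall in them. They come from RefSeq (GRCh38.p14), which held a start for 43 of the 60 named genes, and capitals mark the matches. The STAT palindrome TTCNNNGAA, searched after the values were seen, occurs in 6.57% of 35116 such windows. It occurs 4 times before CISH (chr3:50611775-50612024, minus strand) and not before SOCS3 (chr17:78360926-78361175, minus strand). The element TGACGTCA of CREB and ATF factors, in 1.65% of windows, occurs 86 bases before CCNL1 (chr3:157160148-157160397, minus strand) and before H2BC12. The FOXO core GTAAACA, in 2.98%, occurs on the opposite strand before MYB (chr6:135181058-135181307, plus strand) and before FRAT2. CACGTG, in 6.34%, occurs before MARS2 alone of the named genes, and TGATGCAA, in 0.77%, before none. All motifs were searched on both strands and none overlaps another here. A match is a description of letters in the window.
CISH: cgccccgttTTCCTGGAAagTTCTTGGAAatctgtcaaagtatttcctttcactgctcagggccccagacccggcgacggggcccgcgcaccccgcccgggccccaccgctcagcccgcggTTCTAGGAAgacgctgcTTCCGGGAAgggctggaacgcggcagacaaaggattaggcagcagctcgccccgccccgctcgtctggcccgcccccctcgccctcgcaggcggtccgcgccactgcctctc
SOCS3: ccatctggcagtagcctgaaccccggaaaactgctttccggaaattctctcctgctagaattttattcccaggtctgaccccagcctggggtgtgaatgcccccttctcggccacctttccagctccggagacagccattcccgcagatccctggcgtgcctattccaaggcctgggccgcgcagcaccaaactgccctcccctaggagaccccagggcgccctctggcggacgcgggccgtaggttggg
CCNL1: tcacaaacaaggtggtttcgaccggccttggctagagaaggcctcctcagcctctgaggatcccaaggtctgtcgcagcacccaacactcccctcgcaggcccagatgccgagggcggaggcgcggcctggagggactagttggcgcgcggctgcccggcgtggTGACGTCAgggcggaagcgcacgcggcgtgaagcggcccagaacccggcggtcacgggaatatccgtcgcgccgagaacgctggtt
MYB: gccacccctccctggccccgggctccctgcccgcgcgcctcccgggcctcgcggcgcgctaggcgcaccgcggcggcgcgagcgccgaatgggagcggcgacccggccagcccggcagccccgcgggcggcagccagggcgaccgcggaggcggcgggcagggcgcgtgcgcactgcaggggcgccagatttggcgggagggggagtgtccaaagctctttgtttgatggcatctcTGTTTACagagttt

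Several stress genes under ATF4 rose in both lines and rose further in L-540. Of 27 measured members 11 rose in L-540 and 14 in SUP-HD1, none fell, and 5 were called above 0 for the difference against 1 below. Over all probes 5.83% rose in L-540, 3.03% rose in SUP-HD1, and 1.95% and 0.805% were called above and below 0 for the difference. DDIT3, the pro-apoptotic factor CHOP, read 6.92, 6.96 and 6.96 in control and 10.19, 10.06 and 10.20 in treated L-540. In SUP-HD1 it read 7.25, 6.96 and 7.14 and then 8.88, 8.74 and 8.89. From nearly the same level, DDIT3 rose 9.23-fold in L-540 and 3.29-fold in SUP-HD1, and the treated arrays of the lines did not overlap. The difference on the log2 scale was 1.49 ± 0.13 (adjusted p = 0.000326). Of the 5 genes called above 0, DDIT3 alone kept the call when arrays were scaled by their medians. ATF3, CTH, ATF4 and PPP1R15A lost it in limma, at adjusted p of 0.138 to 0.601.

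ATF4 itself rose from 11.92, 11.86 and 12.15 to 13.49, 13.35 and 13.36 in L-540, and from 13.05, 13.03 and 13.10 to 13.50, 13.56 and 13.57 in SUP-HD1. ATF3, a partner of ATF4 that is also an immediate early gene, rose from 10.08, 9.98 and 9.96 to 11.91, 11.88 and 11.83 and from 11.61, 11.59 and 11.73 to 12.38, 12.42 and 12.40. In both genes the control level was lower in L-540 than in SUP-HD1, and the rise was larger in L-540, by 0.94 ± 0.13 (adjusted p = 0.00414) and 1.11 ± 0.11 (adjusted p = 0.000583). CTH, which makes cysteine from cystathionine, rose 4.54-fold in L-540 and 2.37-fold in SUP-HD1, a difference of 0.94 ± 0.12 (adjusted p = 0.00221). Of the other probes, a second ATF4 probe was called (0.85, adjusted p = 0.0221) and another was not (-0.05), those of CTH gave 1.27 and 0.85, and a second ATF3 probe, detected on all 3 arrays in treated SUP-HD1 alone, gave -0.07.

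CHAC1, a glutathione-degrading enzyme and the single member called below 0, was not detected on any control array of either line. It was detected on 2 of 3 treated arrays of L-540 and on all 3 of SUP-HD1 at 7.09, 7.42 and 7.14. Since a level at background is only a limit, its rise is given as at least 1.10-fold in L-540 and at least 4.60-fold in SUP-HD1 against the lowest detected signal on each array, which is how all such limits were set. PPP1R15A, a phosphatase subunit that restores translation, rose by 2.37 in L-540 and 1.68 in SUP-HD1, and its difference of 0.69 (adjusted p = 0.0365) ended under 10 of the 12 omissions of 1 array, with adjusted p up to 0.0887. The median difference of the 27 genes was 0.02, with a median response of 0.33 in L-540 and 0.45 in SUP-HD1, close to the -0.01 of all probes. In the separate list of the unfolded protein response, 0 of 18 genes were called for the difference and differences ran from -0.53 to 0.40.

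Genes of arrest and death gave few further differences. GADD45G, a growth arrest gene, rose from 9.58, 9.67 and 9.49 to 10.87, 10.88 and 11.07 in L-540 and from 8.81, 8.84 and 8.90 to 9.38, 9.46 and 9.43 in SUP-HD1. Its difference was 0.79 ± 0.12 (adjusted p = 0.00752). PMAIP1, which encodes the BH3 protein NOXA, rose by 1.36 ± 0.15 in L-540, where its control arrays read 7.76, 7.88 and 7.65, and gave 0.30 ± 0.15 in SUP-HD1, where controls already read 11.001, 10.81 and 10.55. Its difference of 1.06 ± 0.22 (adjusted p = 0.0284) ended under 8 of the 12 omissions of 1 array, with adjusted p up to 0.0761, and a second probe gave 0.67 (not called). PMAIP1 was the single call among 16 measured BCL2 family genes, where 1.95% of all probes were called above 0. Of 21 genes of death receptors and necroptosis 1 was called, below 0, where 0.805% of all probes were. This was the necroptosis effector MLKL, which read 8.44, 8.43 and 8.37 and then 7.65, 7.55 and 7.55 in L-540. In SUP-HD1 it read 8.67, 8.82 and 8.86 and then 8.38, 8.52 and 8.47, and the difference of -0.50 ± 0.12 (adjusted p = 0.0455) ended with any 1 of the 12 arrays left out. Of 23 targets of p53, ZMAT3, PMAIP1 and CDKN1A were called above 0 and none below, beside 1.95% and 0.805% of all probes. CDKN1A fell in SUP-HD1 by its brighter probe, which gave the call, while its dimmer probe rose there. ZMAT3 moved up 1.24-fold in L-540 and down 1.41-fold in SUP-HD1.

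**Figure D3:**
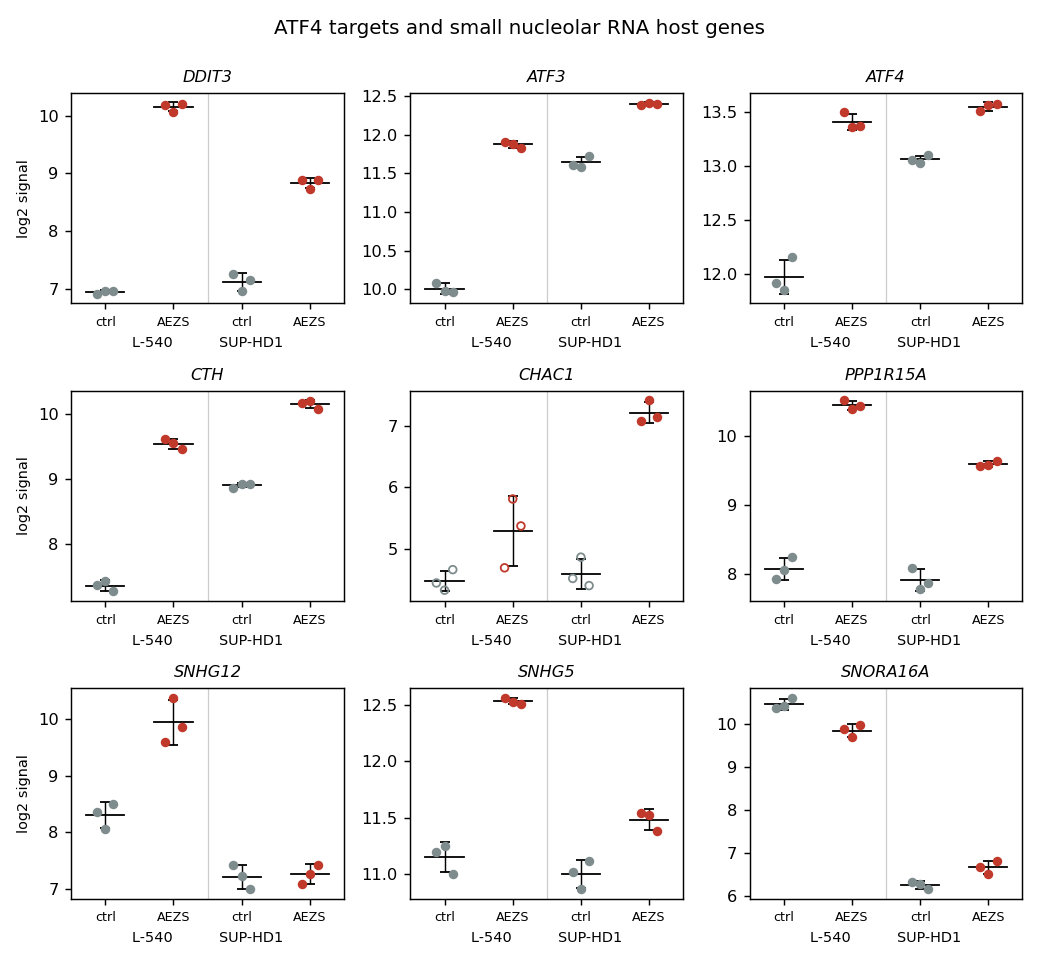
Normalized log2 signal (vertical) of ATF4 pathway genes, small nucleolar RNA host genes and SNORA16A in control (grey) and AEZS-136 (red) arrays of L-540 (left) and SUP-HD1 (right). Points are single arrays, open where the group was not detected on all 3, with the mean and the SD of 3 arrays. DDIT3 starts at nearly the same level in both lines and ends higher in L-540, while SNHG12 moves in L-540 and not in SUP-HD1.

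Most host genes of small nucleolar RNAs rose in both lines, and several rose further in L-540. These transcripts carry small nucleolar RNAs in their introns, and many of the spliced hosts are short-lived because they are degraded by nonsense-mediated decay. Of 17 measured, 7 were called above 0 and none below, beside 1.95% and 0.805% of all probes, and the median difference was 0.45. In L-540 12 of them rose and 1 fell, and in SUP-HD1 11 rose and 3 fell. SNHG12 read 8.36, 8.05 and 8.49 in control and 9.60, 10.38 and 9.86 in treated L-540, and 7.42, 7.22 and 6.995 and then 7.08, 7.27 and 7.42 in SUP-HD1. It rose by 1.65 ± 0.20 in L-540, gave 0.05 ± 0.20 in SUP-HD1, where the groups overlapped, and the difference was 1.60 ± 0.28 (adjusted p = 0.0134).

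The other 6 rose in both lines and further in L-540, and all 6 lost the call for the difference when arrays were scaled by their medians, at adjusted p of 0.298 to 0.804. SNHG5 differed by 0.90 ± 0.14 (adjusted p = 0.00692), EPB41L4A-AS1 by 0.87 ± 0.12 (adjusted p = 0.00461), SNHG32 by 0.77 ± 0.10 (adjusted p = 0.00351) and SNHG15 by 0.67 ± 0.11 (adjusted p = 0.0109). SNHG7 (0.79, adjusted p = 0.0433) and SNHG17 (0.56, adjusted p = 0.032) each lost the call under 10 of the 12 omissions of 1 array, at adjusted p up to 0.0941 and 0.0819. SNHG1 gave 0.67 and was not called (adjusted p = 0.0586). SNHG8, with 0.88 in L-540 and 1.03 in SUP-HD1, and ZFAS1, with 1.12 and 0.85, rose in both lines without a called difference.

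The small nucleolar RNAs inside these hosts were followed beside them. By RefSeq positions 37 measured small nucleolar RNAs lie within the spans of 19 of the listed hosts, a set chosen after the values were seen. Of these, 2 rose and 10 fell in L-540, beside 5.83% and 3.8% of all probes, and 2 rose and 6 fell in SUP-HD1, beside 3.03% and 3.92%. The difference was called above 0 for 2 and below 0 for 1, where 1.95% and 0.805% of all probes were called. Within SNHG12, SNORA16A fell from 10.37, 10.41 and 10.62 to 9.88, 9.69 and 9.98 in L-540 while its host rose, and rose from 6.33, 6.29 and 6.16 to 6.67, 6.52 and 6.82 in SUP-HD1. The difference of SNORA16A was -1.02 ± 0.16 (adjusted p = 0.00764), against 1.60 for SNHG12. SNORA61 of the same host fell by 0.55 in L-540 and gave -0.38 in SUP-HD1, and SNORD99 gave -0.03 in L-540 and fell by 0.91 in SUP-HD1 (difference 0.89, adjusted p = 0.0485).

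Clustered histone genes rose in both lines, each in its own pattern. Of 52 measured genes 28 rose in L-540 and 31 in SUP-HD1, none fell, beside 5.83% and 3.03% of all probes rising. For the difference 6 were called above 0 and 2 below 0, beside 1.95% and 0.805%, with a median of 0.11 that became -0.10 over the genes detected on all 12 arrays. H4C14 rose from 7.82, 7.78 and 7.63 to 10.12, 10.30 and 10.30 in L-540, and from 6.13, 6.28 and 5.98 to 6.98, 6.88 and 6.93 in SUP-HD1. H2AC6 rose from 11.29, 11.30 and 11.32 to 12.12, 12.16 and 12.24 in L-540, and from 6.50, 6.72 and 6.79 to 8.98, 9.04 and 8.98 in SUP-HD1. H4C14 thus rose 5.64-fold against 1.74-fold and H2AC6 1.83-fold against 5.02-fold, differences of 1.70 ± 0.14 (adjusted p = 0.000298) and -1.46 ± 0.12 (adjusted p = 0.000319). Which line rose further thus differed between these histone genes.

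H2BC17 rose by 2.50 ± 0.17 in L-540, from 7.19, 7.22 and 6.85 to 9.72, 9.54 and 9.49. In SUP-HD1 it was detected on no control array and on all treated arrays, at least 1.53-fold higher. H2BC15 was likewise undetected in SUP-HD1 controls and rose by 2.05 in L-540. The linker histone gene H1-4 gave -0.32 in L-540 and rose by 0.52 in SUP-HD1, a difference of -0.84 ± 0.14 (adjusted p = 0.0102). H3C4 (1.12), H4C15 (1.01) and H4C8 (0.65) were called above 0 at adjusted p of 0.0354, 0.0282 and 0.0486, and lost the call under 10, 9 and 10 of the 12 omissions of 1 array. H2BC12, at 11.81, 11.57 and 11.78 in L-540 and 7.50, 7.65 and 7.71 in SUP-HD1 controls, rose by 0.94 and 0.90, with a difference of 0.04 (95% interval -0.310 to 0.388), from control levels 4.10 apart. Histone genes are close copies of each other and their probes may share signal.

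Immediate early genes, which answer growth signals within minutes, gave called differences of both signs. Of 28 measured, 5 were called above 0 and 2 below 0, beside 1.95% and 0.805% of all probes, with a median of 0.25. CSRNP1, a nuclear protein gene induced by growth signals, read 7.90, 8.07 and 7.63 and then 8.18, 8.07 and 8.04 in L-540, where the groups overlapped. In SUP-HD1 it fell from 9.64, 9.84 and 9.77 to 8.62, 8.68 and 8.65, and the difference was 1.33 ± 0.16 (adjusted p = 0.0018). MYC, the growth-promoting transcription factor, fell in both lines, from 11.63, 11.61 and 11.47 to 11.11, 10.96 and 10.95 in L-540 and from 10.91, 10.99 and 11.12 to 9.50, 9.77 and 9.52 in SUP-HD1. The fall was deeper in SUP-HD1, with a difference of 0.84 ± 0.14 (adjusted p = 0.012), and a second probe gave 0.51 (not called). ZFP36 (0.85, adjusted p = 0.046) and BHLHE40 (0.51, adjusted p = 0.0363, not detected in SUP-HD1) lost the call under 10 and 12 of the 12 omissions of 1 array.

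KLF2, a factor of lymphocyte quiescence, and KLF6, a zinc finger factor induced early by many stimuli, were the immediate early genes called below 0. KLF2 read 7.0, 6.96 and 7.17 and then 6.69, 6.88 and 6.84 in L-540, and rose from 7.61, 7.73 and 7.74 to 8.97, 8.93 and 8.83 in SUP-HD1. KLF6 read 8.99, 9.07 and 9.04 and then 9.34, 9.33 and 9.25 in L-540, and rose from 10.44, 10.35 and 10.43 to 11.66, 11.65 and 11.61 in SUP-HD1. Both were higher in SUP-HD1 already in control arrays and rose there by 1.22 and 1.24. The differences were -1.46 ± 0.13 for KLF2 (adjusted p = 0.000326) and -0.96 ± 0.10 for KLF6 (adjusted p = 0.00104), and the changes in L-540, -0.24 and 0.27, were not called.

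Among 35 measured targets of FOXO factors, 4 rose and 6 fell in L-540, 8 rose and 6 fell in SUP-HD1, and differences went both ways, 4 above 0 and 3 below. Over all probes 5.83% rose and 3.8% fell in L-540, 3.03% rose and 3.92% fell in SUP-HD1, and 1.95% and 0.805% were called above and below 0. FBXO32, a ubiquitin ligase subunit and a marker of FOXO activity, fell from 11.64, 11.51 and 11.62 to 10.92, 10.82 and 10.74 in L-540 and read 11.77, 11.70 and 11.85 and then 12.10, 11.90 and 11.95 in SUP-HD1. Its difference was -0.98 ± 0.13 (adjusted p = 0.00316), and a second probe gave -0.41 (not called). TXNIP, a regulator of glucose uptake that is often used as a FOXO target, was at background on all L-540 arrays and fell by 1.23 ± 0.12 in SUP-HD1. S1PR1, a receptor that guides lymphocytes out of lymph nodes, gave 0.46 in L-540 and -0.38 in SUP-HD1, and its difference of 0.84 (adjusted p = 0.0455) ended under 10 of the 12 omissions of 1 array.

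Some heat shock chaperone genes fell, and 3 of them had the larger downward change in SUP-HD1. Of 19 measured, 4 fell in each line, beside 3.8% and 3.92% of all probes, and none rose. For the difference 3 were called above 0 and 1 below, beside 1.95% and 0.805%. All of these calls were lost in limma when arrays were scaled by their medians, at adjusted p of 0.111 to 0.555. DNAJB1, a co-chaperone of HSP70, read 8.69, 8.68 and 8.70 and then 8.69, 8.51 and 8.71 in L-540, and fell from 9.37, 9.36 and 9.36 to 8.23, 8.003 and 8.25 in SUP-HD1, a difference of 1.15 ± 0.13 (adjusted p = 0.00116). HSPA1B, an inducible HSP70, fell by 0.43 ± 0.08 in L-540 and 1.28 ± 0.08 in SUP-HD1, a difference of 0.84 ± 0.11 (adjusted p = 0.00278). BAG3, an HSP70 partner, fell by 0.68 and 1.37 and its difference of 0.69 (adjusted p = 0.0467) ended under 10 of the 12 omissions of 1 array, as that of HSPA1L (-1.20, adjusted p = 0.0289), which was below detection in treated SUP-HD1, did under 7. The constitutive genes HSP90AB1, HSPA8 and HSPD1 had differences of -0.34, 0.35 and -0.03 that were not called.

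Several of the largest differences lay outside these groups. CCNL1, a cyclin that works with splicing kinases, rose from 9.27, 9.25 and 9.22 to 11.11, 11.09 and 10.76 in L-540 and read 9.12, 9.24 and 9.11 and then 9.31, 9.21 and 9.13 in SUP-HD1. It rose 3.34-fold in L-540 from a control level that was nearly the same in SUP-HD1, where treated and control arrays overlapped, and the difference was 1.68 ± 0.15 (adjusted p = 0.000319). A second CCNL1 probe gave 1.27 ± 0.44 (adjusted p = 0.157). Of 19 kinases and factors of splicing in the list that holds the CLK genes, 0 were called for the difference. NFKBIZ, a nuclear regulator of NF-kB targets, rose from 8.38, 8.40 and 8.13 to 9.67, 9.92 and 9.57 in L-540 and read 9.86, 9.75 and 9.60 and then 9.54, 9.59 and 9.62 in SUP-HD1. The difference was 1.57 ± 0.16 (adjusted p = 0.000838), and a second probe at background in L-540 gave 0.10.

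Other genes with a larger upward change in L-540 were the pseudogene CMAHP (1.42 ± 0.15), FYTTD1, an mRNA export adaptor (1.36 ± 0.18), PTBP2, a splicing repressor (1.26 ± 0.17), and GAD1, the glutamate decarboxylase (1.33 ± 0.25). CMAHP and GAD1 stood far higher in L-540 than in SUP-HD1 in control arrays, by 3.73 and 3.85. The call of GAD1 (adjusted p = 0.0198) was lost without L-540 AEZS-136 replicate 2 (adjusted p = 0.0558) and without SUP-HD1 AEZS-136 replicate 1 (adjusted p = 0.0548). Other probes gave -0.28 and 0.00 for GAD1, -0.10 and 0.17 for FYTTD1, 0.76 for CMAHP and 1.04 for PTBP2, so the first of these differences rests on 1 probe of 3 in both GAD1 and FYTTD1.

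HLA-F, a class I HLA gene, read 11.64, 11.68 and 11.68 and then 11.68, 11.74 and 11.64 in L-540, and rose from 8.73, 8.70 and 8.64 to 9.88, 9.87 and 9.60 in SUP-HD1. In L-540 the groups overlapped and in SUP-HD1 they did not, with a difference of -1.07 ± 0.13 (adjusted p = 0.00185), which a second HLA-F probe did not show (-0.11).

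FRAT2, a regulator of GSK3, gave -1.05 ± 0.13, STEAP1, a metalloreductase, -1.11 ± 0.12, and the small nucleolar RNA SNORA55 -1.22 ± 0.20. Other STEAP1 probes gave 0.18 and -0.90. In SUP-HD1 controls STEAP1 and SNORA55 were each detected on 2 of 3 arrays, at means of 5.01 and 5.08. The lowest detected signal on those arrays was 4.95 to 5.07, so both differences set a fall in L-540 against a level near background. RMRP, the RNA of the RNase MRP complex, fell by 1.19 ± 0.15 in L-540 and gave -0.13 in SUP-HD1, and its difference of -1.06 ± 0.21 (adjusted p = 0.0251) ended under 5 of the 12 omissions of 1 array, with adjusted p up to 0.0625. B4GALNT4, KCNC4 and PPP3CA-DT, at -1.16, -1.01 and -0.996, lost the call under 8, 8 and 10 of the 12 omissions of 1 array, and 3 other KCNC4 probes gave 0.04, -0.29 and -0.23. GPR183, a chemotactic receptor of B cells, fell in both lines, from 11.37, 11.16 and 11.23 to 10.15, 10.35 and 10.26 in L-540 and from 11.25, 11.28 and 11.12 to 9.25, 9.13 and 9.09 in SUP-HD1. From equal control levels it fell 2.00-fold and 4.17-fold, a difference of 1.06 ± 0.13 (adjusted p = 0.00231).

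Calls in the remaining lists were few, and over all probes 1.95% were called above 0 and 0.805% below. Of 33 interferon response genes 2 were called, both below 0, IFITM3 (-1.03) and RTP4 (-0.83), and the median was -0.23. The call of RTP4 was lost without SUP-HD1 AEZS-136 replicate 1 (adjusted p = 0.0501). NF-kB targets gave 2 above 0, NFKBIZ and REL, and 2 below, TNIP1 and LTA, among 24, and those of TNIP1 and LTA ended under 7 and 11 of the 12 omissions of 1 array. REL, a subunit of NF-kB, was detected on no control array of L-540 and on all treated ones, at least 1.58-fold higher, while in SUP-HD1 it gave -0.13. NFE2L2, the factor that drives the oxidative stress response, gave 0.17 in L-540 and fell by 0.59 in SUP-HD1 (difference 0.76, adjusted p = 0.00383), and it was the single call among 24 genes of that response. SMAD5, a signal transducer of BMP receptors, fell by 0.88 in L-540 and gave -0.17 in SUP-HD1 (difference -0.70, adjusted p = 0.0095).

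**Figure D4:**
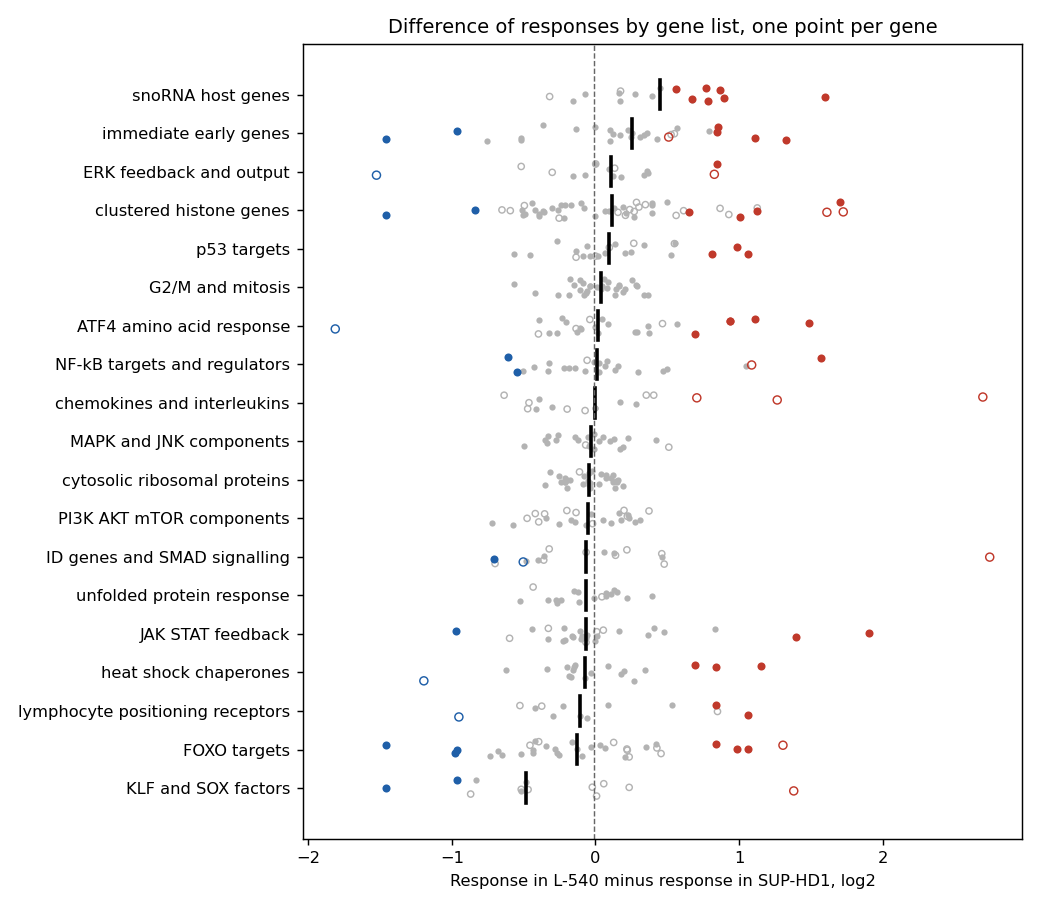
Difference of responses (horizontal, log2, L-540 minus SUP-HD1) of each measured gene of 19 lists, one row per list. Red points were called above 0, blue points below 0 and grey points not called, open where a group detected the gene on fewer than 2 of 3 arrays. Black bars are list medians and the dashed line is the median of -0.01 over all 20616 probes. Host genes of small nucleolar RNAs have a median of 0.45, and most of their points are filled.

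Some probes detected their gene in 1 line only, and for these the response is given with no claim of a difference. In SUP-HD1 CCL2, a chemokine that attracts monocytes, fell from 10.85, 10.83 and 10.83 to 7.97, 8.04 and 8.25, a 6.74-fold fall, and was detected on none of the 6 L-540 arrays. ID1, an inhibitor of basic helix-loop-helix factors, fell from 8.05, 8.16 and 8.24 to 5.61, 5.16 and 5.47, a 6.67-fold fall, and SOX18 fell by 1.42 ± 0.09. The interleukin genes IL13 and IL4, of the type 2 immune response, fell by 1.30 ± 0.10 and 0.68 ± 0.11 in SUP-HD1 and were detected on no L-540 array. LRRC32, a receptor that presents latent TGF-beta, fell below detection in SUP-HD1, at least 2.04-fold. Of 133 genes of this kind in SUP-HD1 the rule also named DSG4 and ZNF485, which fell 3.07-fold and 2.83-fold.

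In L-540 132 genes were of this kind. SPRY1, a feedback inhibitor of ERK signalling, fell from 8.79, 8.78 and 8.70 to 7.30, 7.29 and 7.28, and a second probe, detected on 1 SUP-HD1 array, fell by 1.55. TNFSF14, a TNF family ligand, fell by 2.03 ± 0.17, from 7.37, 7.37 and 7.10 to 5.10, 5.02 and 5.61, with 1 of 3 treated arrays above detection, whereas a second TNFSF14 probe, detected in both lines, gave -0.38 and -0.30 (neither called). OAS2, an interferon-induced enzyme, fell below detection, at least 2.89-fold. Of its other probes in L-540 one fell by 0.89 and the others gave -0.22 and -0.13, not called. FAM24B, ANKRD18DP and the olfactory receptor gene OR2B6 rose 3.20-fold, 2.99-fold and 2.83-fold, the last from controls detected on 1 of 3 arrays. The GTPase genes GIMAP5 and GIMAP8, which support lymphocyte survival, fell in L-540 by 1.95 ± 0.14 and 0.88 ± 0.13, where SUP-HD1 detected the first on 1 control array and the second on none.

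**Figure D5:**
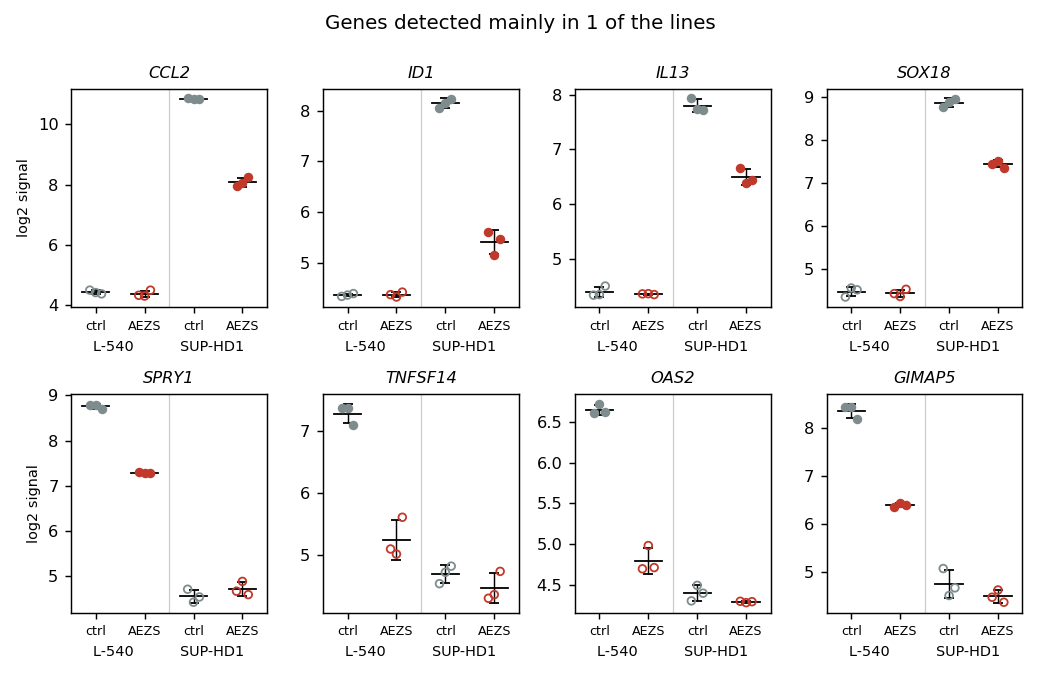
Normalized log2 signal (vertical) of 8 genes detected mainly in SUP-HD1 (top) or in L-540 (bottom), in control (grey) and AEZS-136 (red) arrays. Points are single arrays, filled where all 3 arrays of the group detected the probe, with the mean and the SD of 3 arrays. CCL2 falls from 10.85, 10.83 and 10.83 to 7.97, 8.04 and 8.25 in SUP-HD1 and is at background in L-540.

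A few genes crossed the detection limit in 1 line while at least 2 of 3 arrays of each group detected them in the other. In L-540 FBXO10, a ubiquitin ligase subunit, THG1L, a tRNA-modifying enzyme, ATXN2L, an RNA-binding protein, and PRRT3 were detected on no control array and on all treated ones, at least 2.14-, 2.09-, 1.92- and 1.74-fold higher. Their SUP-HD1 responses were -0.09, 0.26, 0.44 and -0.18, of which that of ATXN2L was called. A brighter THG1L probe, detected in both lines, gave 0.23 in L-540 and 0.09 in SUP-HD1, and other ATXN2L probes gave differences of -0.17 and 0.36. ZNF304 was detected on no control and on all treated arrays of SUP-HD1, at least 1.14-fold higher, against -0.26 in L-540, and its difference of -0.71 (adjusted p = 0.0354) ended under 11 of the 12 omissions of 1 array.

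Some responses were of similar size in both lines. Among the 542 probes called in both with the same sign, 105 had a 95% confidence interval of the difference that lay within 0.4 of 0 on both sides. CLK1, a splicing kinase that works on SR proteins, rose from 10.36, 10.32 and 10.40 to 11.42, 11.44 and 11.42 in L-540 and from 9.82, 9.80 and 9.90 to 10.74, 10.81 and 10.77 in SUP-HD1. Its difference was 0.14, with an interval of -0.085 to 0.356. PLD6, a mitochondrial phospholipase of the piRNA pathway, fell from 10.25, 10.34 and 10.24 to 8.83, 8.97 and 9.06 in L-540 and from 9.81, 9.89 and 10.04 to 8.56, 8.75 and 8.60 in SUP-HD1. The difference of PLD6 was -0.05, with an interval of -0.349 to 0.252, and the groups stayed apart in both lines for both genes. TAPT1, H2BC12 and CCDC174 rose and AQP11, TIGD5 and MARS2, the mitochondrial methionyl-tRNA synthetase, fell to the same extent within these limits, with differences between -0.04 and 0.11. These values rest on 1 probe per gene. A second probe gave a difference of -0.47 for MARS2, beyond the limit of 0.4. Second probes gave -0.21 for H2BC12, -0.17 for CLK1 and 0.01 for PLD6.

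The pathway that AEZS-136 targets showed no called difference in its own transcripts. Of 26 components of PI3K, AKT and mTOR signalling and 22 of MAPK and JNK signalling, 0 were called, with differences of -0.72 to 0.37 and -0.50 to 0.51, and a value that misses the threshold does not show equal responses. Of 16 feedback and output genes of ERK, SPRY1 was called below 0 and SPRED1 and MYC above, beside 0.805% and 1.95% of all probes. However, L-540 did not detect SPRED1 and SUP-HD1 detected SPRY1 on at most 1 array. This leaves MYC as the single call among the 10 of these genes detected in all groups. No differences were called among 31 cytosolic ribosomal protein genes, 31 genes of mitosis, 28 of glycolysis and hypoxia, 25 of sterol and fatty acid synthesis or 15 housekeeping genes, and their differences lay between -0.57 and 0.53. In limma 3570 of the 20616 probes had an unadjusted p under 0.05 for the difference, and the median standard error was 0.195.

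IER3, MCL1 and CDKN1A were followed because the study examined them. IER3, an early response gene of ERK and NF-kB, read 11.55, 11.61 and 11.72 and then 11.57, 11.47 and 11.67 in L-540, and 8.10, 8.09 and 8.44 and then 7.72, 7.88 and 7.85 in SUP-HD1. Its control level differed by 3.42 between the lines, and its response of -0.05 ± 0.11 in L-540 was not called. The response of -0.39 ± 0.11 in SUP-HD1 had an adjusted p of 0.0492 and missed the call by its size alone, since the minimum was 0.4, and the difference of 0.34 ± 0.15 was not called either (adjusted p = 0.289). The 2 probes of MCL1, an anti-apoptotic BCL2 family gene, gave differences of 0.00 and 0.58, neither called (adjusted p = 0.999 and 0.169).

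CDKN1A, which encodes the cyclin-dependent kinase inhibitor p21, gave values that depended on the probe. The brighter probe read 11.59, 11.66 and 11.86 and then 11.87, 11.64 and 11.78 in L-540, and fell from 12.08, 11.98 and 12.30 to 11.12, 11.31 and 11.15 in SUP-HD1, a difference of 0.99 ± 0.16 (adjusted p = 0.00924). The dimmer probe rose in both lines, from 5.59, 5.39 and 5.61 to 6.58, 6.68 and 6.63 in L-540 and from 7.50, 7.53 and 7.63 to 8.20, 8.39 and 8.32 in SUP-HD1, with a difference of 0.34 ± 0.13 (adjusted p = 0.186). In SUP-HD1 the probes of CDKN1A thus moved in opposite directions, by -0.93 and 0.75, with no overlap of treated and control arrays for either.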

How the data were processed

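RNA of 24 samples of 4 Hodgkin lymphoma lines was measured on Illumina bead arrays, and 12 arrays of L-540 and SUP-HD1 were compared. The authors exported signal intensity per probe from BeadStudio (version not given), and this deposited intensity is not normalized. The deposited detection column is a score that equals 1 minus the detection p. The authors' normalized table, by lumi per the study's methods, holds log2 values and served as an alternative. Of 47323 probes, 3270 whose rows were out of register were left out, and 112 unnamed columns were not used. Intensities of all 24 arrays were background-corrected and quantile-normalized on the log2 scale with neqc (offset 16) in limma 3.58.1 (R 4.3.3). A probe was kept if 3 or more of the 12 arrays had a detection p under 0.05, which left 20616. Symbols came from the platform annotation, which gave 30113 probes 1 symbol, 8 several and 17202 none.

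One limma model over the 4 groups gave both responses and their difference, with Benjamini-Hochberg adjustment over all kept probes. A call needed an adjusted p under 0.05 and an absolute log2 value over 0.4, and errors in the text are standard errors of the fit. Named genes were, with 1 probe per gene, the 14 largest called differences in each direction with detection in every group, opposite responses, line-restricted genes, genes crossing the detection limit, listed genes and the 8 largest nearly equal responses. One gene that this rule named is not reported here. Where a gene was undetected in a group, its fold is a lower limit against the lowest detected signal of each array. Named genes used the probe of lowest adjusted p and lists the brightest probe of each gene. The comparison, the members and the lists were chosen with earlier results of these data known. The fit was tested on simulated data. Replicate numbers were checked for pairing, and the main model did not pair the arrays by number. Alternatives were other normalizations, filters, blocks, arrays and tests.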

Additional observations from a re-analysis of the deposited data

Results flagged for a closer look

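In 9 genes L-540 and SUP-HD1 responded in opposite directions and the difference of responses passed the test. The count of called differences over all probes, 568, is given for the same reason. The 2 export sets were cut from an inferred array order and are named by no label. The first holds 1 control and 2 AEZS-136 arrays of each line and the second 2 and 1. Each gene is given with its difference within the first and the second set and its range with any 1 array left out.

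SOCS3 differed by 1.90, with 1.88 and 1.91 within the sets and 1.80 to 1.96 over the omissions. SERTAD3 differed by 1.37, with 1.57 and 1.25 within the sets and a range of 1.22 to 1.53. For SERTAD1 the difference was 1.25, within the sets 1.25 and 1.32, and the range 1.20 to 1.30. These 3 genes were higher after treatment in L-540 and lower in SUP-HD1 in both sets' differences.

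MYB differed by -1.57, with -1.41 and -1.62 within the sets and -1.63 to -1.52 over the omissions. IFITM3 gave -1.03, with -1.27 and -0.74 within the sets and a range of -1.13 to -0.90. SNORA16A gave -1.02, with -1.24 and -0.78 within the sets and a range of -1.10 to -0.94.

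ALG10B gave 1.13, with 1.31 and 1.13 within the sets and a range of 1.06 to 1.25. BORA gave 0.99, with 0.88 and 1.19 and a range of 0.93 to 1.09, and NAA16 gave 1.03, with 1.24 and 0.79 and a range of 0.94 to 1.12. The opposite call in both lines held for 3 to 7 of the 9 genes with 1 array left out, for 1 under median scaling and for 2 on the authors' values. The sign of the difference held in every one of these values, and within both sets it held for all 568 called differences. The sets are parts of the 12 arrays on which these genes were picked, so the shared sign is no separate support. Over all kept probes the differences within the 2 sets correlated at a Pearson coefficient of 0.31. Each set holds a single array of 1 group per line, so only sizes are given here. Whether export set or another technical factor has a part in these differences was not tested.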

How the results depend on the processing

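The difference of responses kept its sign in every setting for the 31 named genes of largest or opposite difference, and 26 of them stayed called with any 1 array left out. These genes were picked on the same arrays, so their kept sign is no separate support. Their calls held for 31 with the export set as a block, 29 on the authors' values and 18 under each of median scaling and the replicate block, among them 4 and 4 of the 9 genes with opposite responses. The counts depended more on the setting. Differences above 0 numbered 402, and 697 on all 24 arrays, 42 under median scaling, 52 with the replicate block and 0 within either export set. Differences below 0 numbered 166, and 331 on all 24 arrays, 280 without background correction, 21 under median scaling, 26 with the replicate block and 0 within either set. Deviations of control and treated arrays of a line correlated at -0.196 to 0.113 where they shared a replicate number. Other numbers gave -0.156 to 0.191, and why calls were lost with the replicate block was not tested. Rises in L-540 numbered 1202, and 617 without background correction, 588 on the authors' values, and 369 and 0 within the sets. Falls in L-540 numbered 784, and 174 under median scaling, 369 without background correction, 336 on the authors' values, and 186 and 0 within the sets. Rises in SUP-HD1 numbered 625, and 343 under median scaling, 289 without background correction, 333 with the replicate block, 270 on the authors' values and 0 within either set. Falls in SUP-HD1 numbered 809, and 125, 432, 457, 396 and 0 in the same order. Shared calls of the same direction numbered 542, and 190, 261, 309, 241 and 0 in that order. Opposite calls numbered 18, and 1 under median scaling, 3 without background correction, 8 without the filter, 31 without the minimum size, 7 with the replicate block, 2 on the authors' values and 0 within either set. With 1 array left out the ranges were 210 to 379 above 0, 78 to 181 below 0, 930 to 1191 and 623 to 778 for rises and falls in L-540, 412 to 677 and 578 to 856 in SUP-HD1, 405 to 528 shared and 8 to 23 opposite. Smaller sets and omissions test fewer arrays, and for the other settings the cause was not tested. The share of calls above 0 was 70.8%, and 66.7% to 74.1% over the settings with calls. Median scaling moved the median response to 0.058 in L-540 and 0.117 in SUP-HD1, from -0.015 and 0.011. No called difference changed its sign. Among values that were not called, the dimmer CDKN1A probe, at 0.35, gave -0.08 without background correction and -0.07 on the authors' values, and differences near 0, among them TIGD5 and H2BC12, and list medians near 0 took either sign. Dim probes near background limit all folds.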

Other observations

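Some gene families outside the lists were looked at after their values were seen, so they are values without a test. Small nucleolar RNAs named SNORA, which guide pseudouridylation of other RNAs, had 87 probes. Of these, 46 fell (52.9%) and 0 rose in L-540, beside 3.8% and 5.83% of all probes. In SUP-HD1 16 fell (18.4%) and 2 rose, beside 3.92% and 3.03%. For the difference 0 were called above 0 and 9 below (10.34%), beside 1.95% and 0.805% of all probes, with a median of -0.29. Under median scaling 0 were called in either direction, and on the authors' values 0 above and 24 below. Those named SNORD, which guide methylation, had 93 probes, with a median difference of -0.04. Of these, 4 were called above 0 (4.3%) and 2 below (2.15%), beside 1.95% and 0.805% of all probes. Zinc finger genes named ZNF had 378 probes, 23 called above 0 (6.08%) and 4 below (1.06%), beside 1.95% and 0.805% of all probes, and 2 and 1 under median scaling. In L-540 21 rose and 20 fell, where 5.83% and 3.8% of all probes did, and in SUP-HD1 9 rose and 42 fell, where 3.03% and 3.92% did.

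TSC22D3, which encodes the glucocorticoid-induced leucine zipper and is a FOXO target, rose in SUP-HD1 from 6.02, 6.39 and 6.18 to 8.16, 8.31 and 8.11, while L-540 detected that probe on 1 array per group. BLOC1S2, a subunit of a lysosome-related complex, rose in L-540 from 5.07, 5.34 and 5.00 to 7.71, 7.57 and 7.58 and in SUP-HD1 from 7.34, 7.44 and 7.77 to 8.53, 8.61 and 8.49, with 1 of 3 control arrays of L-540 above detection. ZNF296 fell in both lines, by 0.93 in L-540 and 1.73 in SUP-HD1, and its difference of 0.80 was called.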
